A study of Homo sapiens with 12 samples.

Results

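The triple combination of PIM447, pomalidomide and dexamethasone (PIM-Pd) was compared with untreated cells across the genes of the array in MM.1S, an established human multiple myeloma cell line that is sensitive to glucocorticoids. The comparison rested on 6 of the 12 arrays of the series: 3 of PIM-Pd and 3 of control, each group with biological replicates numbered 1, 2 and 3 in pairs and taken from independent experiments. PIM-Pd cells had received PIM447 at 100 nM, pomalidomide at 200 nM and dexamethasone at 5 nM, all given together for 10 h. Control cells had no drug, and the labels give them no time in culture. The other 6 arrays held cells given PIM447 alone (PIM, 100 nM for 24 h) or pomalidomide with dexamethasone (Pd, 200 nM and 5 nM for 15 h), so the 3 treatments differed in duration as well as in drug. All cells grew in RPMI-1640 medium with 10% serum, and the treatments were sub-lethal, with viabilities of 74 to 81% in the labels. The only cells were those of 1 line in culture, and the RNA was total RNA of each whole culture, in which fewer cells of a kind and less RNA per cell cannot be told apart.

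PIM447 inhibits the PIM serine/threonine kinases, which help to sustain cap-dependent translation and the survival of myeloma cells. Pomalidomide binds cereblon, the substrate receptor of an E3 ubiquitin ligase, which then marks the lymphoid transcription factors IKZF1 and IKZF3 for degradation; IRF4 and c-Myc act downstream of them. Dexamethasone activates the glucocorticoid receptor, a transcription factor that kills sensitive myeloma cells. c-Myc drives transcription of the genes with which a cell builds ribosomes, copies its DNA and feeds its metabolism. The question set by the design was which transcripts differ between cells given all the drugs and untreated cells.

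Values were log2 RMA levels of 17710 probe sets, 1 for each Ensembl gene, and differences are log2 differences PIM-Pd minus control from limma with the replicate number as a block. A probe set was called when its Benjamini-Hochberg adjusted p was below 0.05. A symbol could be given to 1901 probe sets (10.7%), those that the study's own lists of deregulated genes pair with one. Named genes were therefore chosen on these same arrays: 76.7% of them were called in this comparison, 38.5% higher and 38.2% lower, and each count of called members below is to be read against those shares and is no independent evidence of a direction. Members of a gene list without a symbol here were not analysed by name. Of 10 plasma cell markers, only IRF4, CD38 and SLAMF7 could be named. SLAMF7 differed by -0.19 and was not called. Of the markers of T, NK, myeloid, stromal, epithelial and erythroid cells only CD3E could be named, so the cell type could be checked only in part. CD3E lay between 3.82 and 4.88 on the 6 arrays, with overlapping groups (log2 difference -0.57, adjusted p = 0.048 in limma, and 0.152 to 0.228 without control 1, control 3, PIM-Pd 2 or PIM-Pd 3).

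After 10 h of PIM-Pd, 1934 of 17710 probe sets were called in limma (10.9%), 897 higher (5.06%) and 1037 lower (5.86%). With a fold of at least 2 as well, 155 were higher (0.875%) and 100 lower (0.565%). Of all these calls 10 were higher by at least 4-fold and none was lower by as much. The difference had the same sign in all 3 replicate pairs for 1933 of the 1934, and the 2 groups did not overlap for 1866 of them, against 4371 of all probe sets (24.7%). A call in a fit blocked by replicate favours both, so neither count is separate evidence. The median difference over all probe sets was 0.008. PIM-Pd 1 stood somewhat apart from the other PIM-Pd arrays: the SD of its differences from them was 0.313 and 0.315, against 0.269 between PIM-Pd 2 and PIM-Pd 3 and 0.234 to 0.262 among controls. Without PIM-Pd 1, 675 probe sets were called higher and 655 lower. The counts also fell by more than 1.5 times without PIM-Pd 3 (587 higher and 674 lower), without control 1 (526 and 530) and without control 3 (513 and 649), while 153 were lower by 2-fold without PIM-Pd 2. The plot of all probe sets shows where the calls lay.

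**Figure D1:**
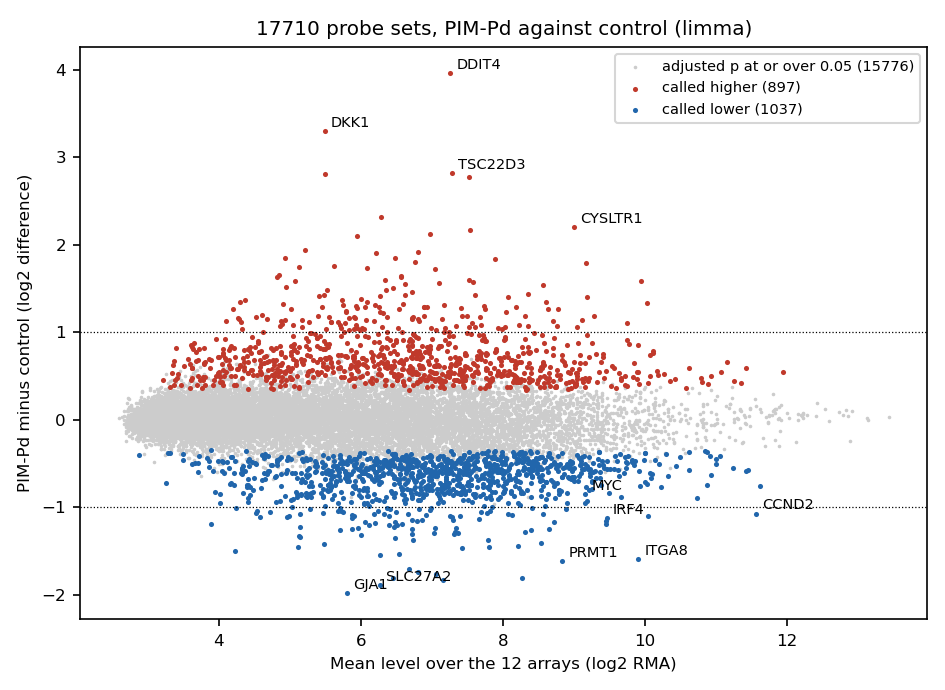
Log2 difference PIM-Pd minus control (vertical) against the mean log2 RMA level over the 12 arrays (horizontal), 1 point for each of 17710 probe sets; red points were called higher (897) and blue points lower (1037), and dotted lines mark a 2-fold difference. The rises reached 3.96 (DDIT4) and the falls -1.98 (GJA1).

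The named genes with the largest rises were DDIT4, DKK1 and TSC22D3. DDIT4 encodes a stress-induced inhibitor of mTORC1 and is a classic glucocorticoid target. Its level was 5.20, 5.42 and 5.16 in control 1, 2 and 3 and 9.10, 9.16 and 9.39 in PIM-Pd 1, 2 and 3, with no overlap. The log2 difference was 3.96 ± 0.13 (SE, n = 3 per group), or 15.6-fold (adjusted p = 2.1e-09 in limma). DKK1, a secreted Wnt antagonist known for its part in myeloma bone disease, went from 4.41, 3.88 and 3.79 to 7.64, 6.64 and 7.71, a rise of 3.30 ± 0.19 or 9.87-fold. Every PIM-Pd array lay more than 2 log2 units above every control array for DKK1. TSC22D3, which encodes the glucocorticoid-induced leucine zipper GILZ, rose from 5.93, 5.92 and 6.27 to 8.89, 8.63 and 9.06 (2.82 ± 0.18, 7.05-fold).

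The other 9 genes at the top rose by 1.92 to 2.81 on the log2 scale. TPBG, an oncofetal surface glycoprotein, rose 6.99-fold. FAR2, a fatty acyl-CoA reductase, rose 6.86-fold and ANTXR1, an anthrax toxin receptor, 4.98-fold. CYSLTR1, a leukotriene receptor, lay at 7.80 to 7.98 in control and at 9.81 to 10.24 in PIM-Pd and rose 4.61-fold. ATP2B4, a plasma membrane calcium pump, rose 4.48-fold, and NT5E, the ecto-nucleotidase CD73, rose 4.35-fold. PFKFB2, which makes the activator of phosphofructokinase, rose 4.28-fold and MEI1 3.78-fold. CCL4, a chemokine, varied most among the treated arrays. Its levels were 6.94, 4.97 and 6.80 in PIM-Pd 1, 2 and 3 against 4.57, 4.11 and 4.22 in control, so that PIM-Pd 2 lay only just above the highest control (1.94 ± 0.35, adjusted p = 0.0034 in limma).

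The named genes with the largest falls were GJA1 and SLC27A2. GJA1 encodes the gap junction protein connexin 43. It went from 6.69, 6.90 and 6.61 in control 1, 2 and 3 to 4.62, 4.76 and 4.88 in PIM-Pd 1, 2 and 3, a log2 difference of -1.98 ± 0.15, which left 25.4% of the control level (adjusted p = 8.8e-06 in limma). SLC27A2, a fatty acid transporter and acyl-CoA synthetase, went from 7.38, 7.10 and 7.24 to 4.83, 5.95 and 5.26 (-1.89 ± 0.22). IGFBP3, a binding protein of insulin-like growth factors, fell to 28.1% of the control level. STON2, an endocytic adaptor, fell to 28.6%. LRP8, an apolipoprotein E receptor, fell by 1.74. CHCHD4, which drives protein import into the mitochondrial intermembrane space, fell to 29.5%, with PIM-Pd 1 at 5.36 and the others at 6.35 and 6.4.

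PRMT1, the main arginine methyltransferase that makes asymmetric dimethylarginine, lay at 9.56, 9.65 and 9.56 in control and at 7.69, 8.25 and 7.99 in PIM-Pd (-1.61 ± 0.11). ITGA8, an integrin chain, fell from 10.52, 10.72 and 10.71 to 8.90, 9.36 and 8.93 (-1.59 ± 0.13). Both stayed clear of the control range on every PIM-Pd array. NUAK1, an AMPK-related kinase, and CRYBB1, a crystallin, had 1 treated array each well above the others: NUAK1 was at 4.87, 5.25 and 6.46 in PIM-Pd 1, 2 and 3 and CRYBB1 at 7.0, 8.34 and 7.20. Their differences were -1.71 ± 0.25 and -1.80 ± 0.26. AGMAT, annotated as an agmatinase, and UTP20, a factor of small ribosomal subunit assembly, both fell by 1.54.

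**Figure D2:**
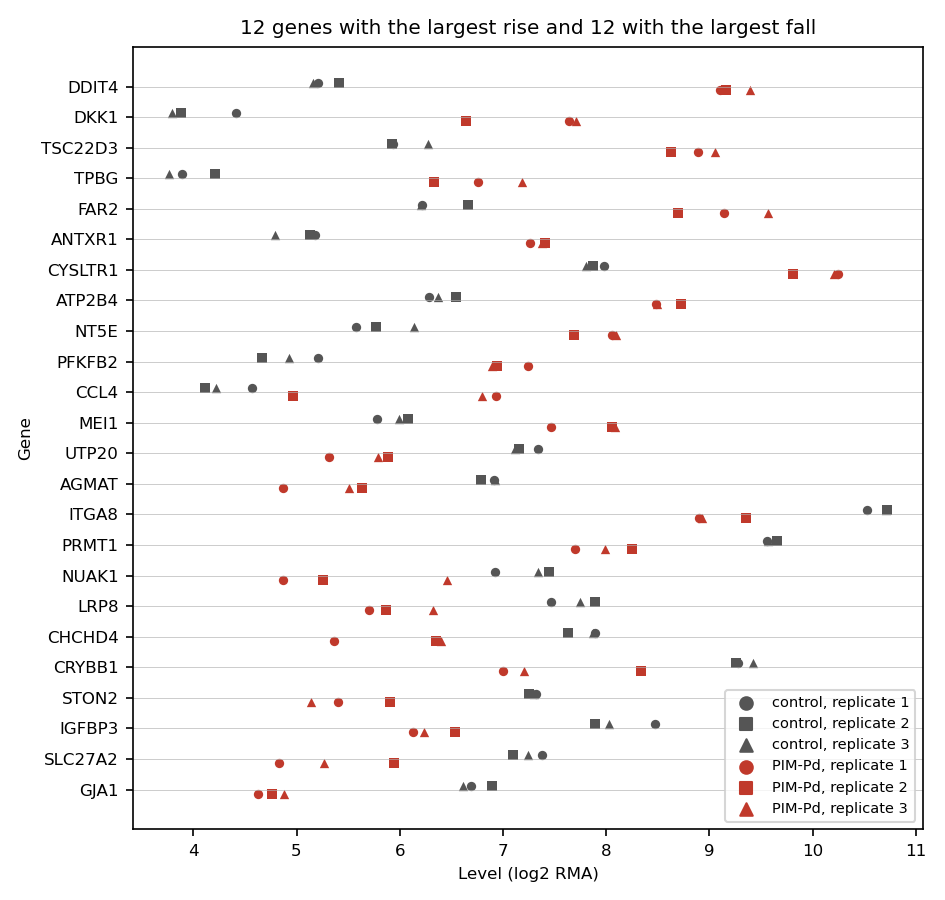
Log2 RMA level (horizontal) on each control (grey) and PIM-Pd (red) array for the 12 genes with the largest rise and the 12 with the largest fall among named, called genes; circles, squares and triangles are replicates 1, 2 and 3. The groups did not overlap for any of the 24, which were picked as the largest differences with 1 direction in all pairs. Levels are not comparable between genes.

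Ribosome biogenesis factors process and assemble ribosomal RNA in the nucleolus, and many are known c-Myc targets. Of 56 on the list, 32 could be named, and 30 of these fell, none rose and 2 were not called. The 32 differences ran from -1.54 to -0.30. With 1 of the 6 arrays left out, 22 to 28 of the 32 were called lower. UTP20 had the lowest: 7.34, 7.15 and 7.12 in control 1, 2 and 3 and 5.31, 5.89 and 5.79 in PIM-Pd (34.4% of the control level, adjusted p = 3.8e-05 in limma). DKC1, the pseudouridine synthase dyskerin, went from 8.06, 7.51 and 8.01 to 6.12, 6.87 and 6.71. PNO1, which acts late in small subunit maturation, went from 6.43, 6.19 and 6.26 to 4.88, 5.08 and 5.13. DDX21, a nucleolar RNA helicase, went from 9.28, 9.02 and 9.14 to 7.51, 8.05 and 8.14. These 3 fell to 40.9, 41.6 and 42.3% of the control level, and in each of them PIM-Pd 1 was the lowest array. Of 79 cytosolic ribosomal proteins, none could be named.

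The machinery that transcribes ribosomal and transfer RNA genes moved the same way. All 11 members of RNA polymerases I and III and their factors that could be named, of 37, fell, by 0.57 to 1.01. Without control 1, 7 of the 11 were called lower, and 10 or 11 without any other single array. POLR3K, a subunit of RNA polymerase III, went from 7.31, 7.34 and 7.67 to 6.19, 6.51 and 6.58 (-1.01 ± 0.12). POLR1G, a subunit of RNA polymerase I, fell to 54.5% of the control level. Among translation factors 8 of 50 could be named, of which 7 fell and 1 rose. EIF4G1, the scaffold of the cap-binding complex, was at 8.48, 8.62 and 8.62 in control and at 7.69, 7.95 and 7.75 in PIM-Pd (-0.78 ± 0.10). EIF4EBP1, the inhibitory binding protein of eIF4E that mTORC1 inactivates, fell by 0.85, and EIF5A, which helps ribosomes past difficult peptide bonds, by 0.66. The 1 that rose was PDCD4, an inhibitor of the helicase EIF4A: it went from 6.71, 5.97 and 6.16 to 7.44, 7.63 and 7.65 (2.45-fold). Control 1 was the highest control for PDCD4 and still lay below each treated array.

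SR proteins, which define splice sites, gave 4 named members of 14, and all 4 fell. SRSF2 was the lowest at 44.9% of the control level, SRSF6 was at 55.8% and SRSF7 at 65.3%. SRSF1, at 71.9%, was not called without PIM-Pd 1 or any single control array (adjusted p = 0.053 to 0.071 in limma). Of 6 named genes of the respiratory chain and ATP synthase, of 49, all fell: CYCS (cytochrome c) to 43.8%, CYC1 to 59.3%, ATP5MC1 to 64.3% and UQCRC2 to 67.2%. Of 4 named proteasome subunits, of 31, 3 fell, with PSMA3 at 59.4%. The number called lower was 1 without PIM-Pd 1 or without control 1, and 2 without PIM-Pd 3, control 2 or control 3.

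Promoters of the ribosome biogenesis factors were searched for CACGTG, the E-box that c-Myc with MAX binds, in a window of 250 bases before to 50 bases after the RefSeq start site (GRCh38.p14), with the first listed promoter of each gene. The letters read the same on both strands. Of the 30 called factors 26 had a promoter in the table, and 12 of these (46.2%) held the motif. It was in 7.43% of all 27305 promoters, 8.88% of those of protein-coding genes, 16.6% of those of named genes called lower and 7.84% of those of named genes called higher. A match, here and for the motifs below, is a description of the letters and not a site at which binding was measured. The lists were written from textbook membership, so the share of a list that holds a motif is no evidence of a response on these arrays. The stretches below lie wholly before the start site and show called factors that hold an E-box there, in capitals.
UTP20 (chr12:101280025-101280104, plus strand): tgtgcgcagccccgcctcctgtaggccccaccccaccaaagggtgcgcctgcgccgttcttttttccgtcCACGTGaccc
UTP14A (chrX:129905914-129905993, plus strand): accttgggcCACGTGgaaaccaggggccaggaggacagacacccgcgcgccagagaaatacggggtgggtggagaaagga
IMP4 (chr2:130342657-130342736, plus strand): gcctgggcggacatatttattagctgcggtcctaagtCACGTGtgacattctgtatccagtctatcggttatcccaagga
Matches of different motifs among the 4 searched shared bases in 30 of all promoters, 2 of them of called list members. In UTP20 the E-box began 10 bases before the start site, and in the others 241 and 203 bases before it. All of these stretches were chosen after the values were seen, and the differences of the other genes were -0.87 for UTP14A and -0.58 for IMP4.

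Genes of DNA replication, many of them expressed in S phase under E2F factors, gave 20 named members of 52, of which 17 fell, 1 rose and 2 were not called. MCM6, a subunit of the replicative helicase, was at 7.40, 7.30 and 7.38 in control and at 6.01, 6.5 and 6.11 in PIM-Pd (44.9% of the control level, adjusted p = 5.5e-04 in limma). CDC6, which loads that helicase, went from 8.49, 8.14 and 8.23 to 6.78, 7.47 and 7.22, and UNG, which removes uracil from DNA, from 6.43, 6.26 and 6.59 to 5.29, 5.41 and 5.29. UHRF1, which maintains DNA methylation at the fork, fell to 49.5%. None of these 4 overlapped with control, but they were picked as the called members with the largest differences. Of all probe sets 24.7% did not overlap. The 1 member that rose, by 0.43, was TK1, thymidine kinase; it lies outside the rule for naming, is named after its value was seen, and was not called without PIM-Pd 2 or any single control array.

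Regulators of the G1 phase gave 12 named members of 30, with 9 lower, 1 higher and 2 not called. E2F1, a transcription factor of S-phase entry, went from 6.53, 6.93 and 6.63 to 5.34, 5.23 and 5.56 (-1.32 ± 0.14, adjusted p = 1.2e-04 in limma). CDC25A, the phosphatase that activates CDK2, was at 6.17, 6.28 and 6.17 in control and at 4.78, 5.68 and 5.15 in PIM-Pd (-1.01 ± 0.17). The higher member was CDKN1A, the CDK inhibitor p21, with a difference of 0.63, named after its value was seen and not called without PIM-Pd 1, control 1 or control 3. Of 45 mitotic genes only MAD2L1 and CDC25C could be named, with differences of -0.61 and 0.42. MAD2L1, a spindle checkpoint protein, was called, but not without PIM-Pd 1 (adjusted p = 0.099), PIM-Pd 3 (0.085), control 1 (0.106) or control 3 (0.069); CDC25C was not called.

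The E2F letters TTTCCCGC were searched on both strands in the same window. They were in 4 of the 17 called replication genes with a promoter in the table (23.5%), against 1.66% of all promoters, 2.18% of those of protein-coding genes and 3.70% of those of named genes called lower. They were also in 2 of the 8 called interferon-stimulated genes with a promoter (25%), a list that rose. These include OAS3, shown further below, where the E2F letters share bases with the GAAANNGAA match, so the 2 motifs are not separate there. The 3 shown have the largest falls of those with a match before the start site, in capitals.
UHRF1 (chr19:4909421-4909500, plus strand): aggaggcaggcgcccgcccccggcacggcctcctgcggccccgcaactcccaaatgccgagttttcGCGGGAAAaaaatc
PCNA (chr20:5126638-5126717, minus strand): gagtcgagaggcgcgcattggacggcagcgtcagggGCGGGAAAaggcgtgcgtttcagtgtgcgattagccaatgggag
RFC3 (chr13:33818058-33818137, plus strand): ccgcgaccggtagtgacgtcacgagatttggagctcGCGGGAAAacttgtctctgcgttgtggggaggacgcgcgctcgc
PCNA, the sliding clamp of the replication fork, differed by -0.80, and RFC3, part of the clamp loader, by -0.78. The match began 14, 59 and 55 bases before the start site in UHRF1, PCNA and RFC3.

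The study followed by RT-qPCR 8 genes that it had reported as lower on these same arrays. All 8 were lower after PIM-Pd here too, which is therefore no independent evidence. MYC, which encodes c-Myc, was at 9.21, 9.65 and 9.59 in control 1, 2 and 3 and at 8.50, 8.76 and 8.66 in PIM-Pd, 55.6% of the control level (-0.85 ± 0.12, adjusted p = 6.9e-04 in limma). IRF4, a transcription factor on which plasma cells depend, went from 9.94, 10.24 and 10.02 to 9.01, 8.92 and 8.89 (45.9%). The 2 groups lay clearly apart for IRF4. CCND2, cyclin D2, which partners CDK4 in G1, went from 12.11, 11.90 and 12.02 to 10.87, 10.83 and 11.12 (47.6%). CDK4 went from 9.02, 9.22 and 9.11 to 8.43, 8.53 and 8.43 (63.6%). ACACA, acetyl-CoA carboxylase, which commits carbon to fatty acids, went from 6.0, 6.44 and 6.09 to 4.99, 5.11 and 5.26 (48.2%). The glycolytic enzymes followed the same pattern. PFKM, phosphofructokinase, fell to 55.9% and PGK1, phosphoglycerate kinase, to 61.7%. FBL, the nucleolar methyltransferase fibrillarin, had the smallest difference, -0.48 ± 0.11 (adjusted p = 0.0125 in limma). For FBL the adjusted p was 0.068 without PIM-Pd 1, 0.060 without PIM-Pd 3, 0.058 without control 1 and 0.066 without control 3.

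**Figure D3:**
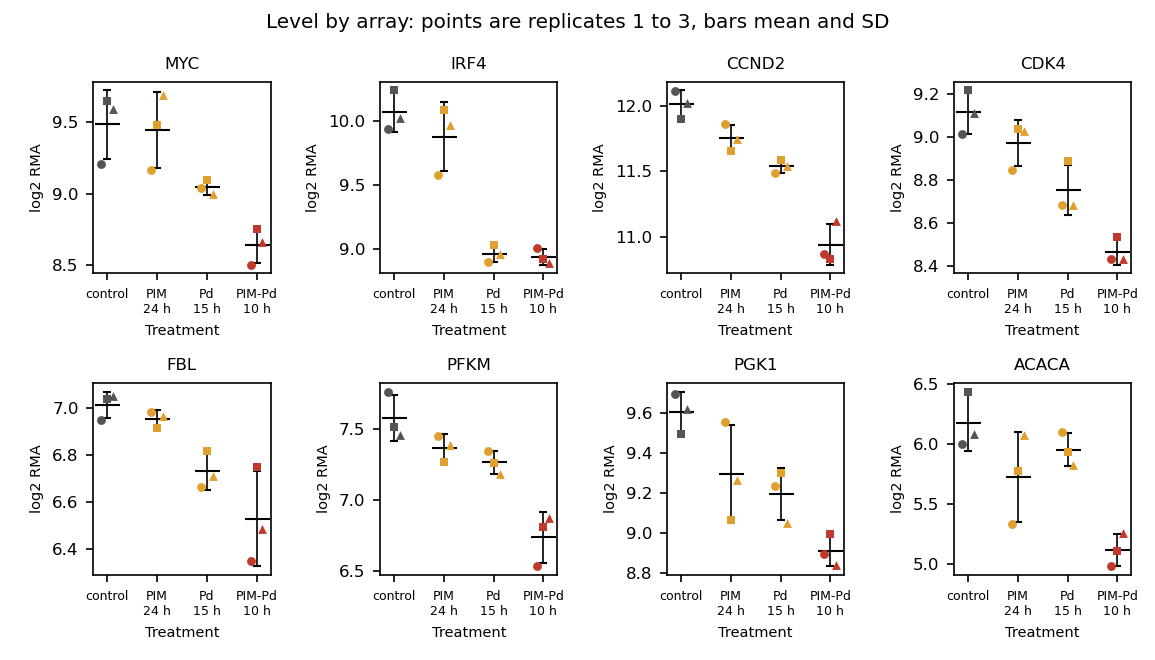
Log2 RMA level of the 8 genes on every array of the 4 treatment groups, with replicates 1, 2 and 3 as circles, squares and triangles and bars for the mean and SD of 3 arrays; the vertical axes do not start at 0 and differ between panels. All 3 PIM-Pd arrays (red) lay below all 3 control arrays (grey) in each panel, and treatment times differed between the groups. The study had reported these genes as lower on the same arrays.

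Among other metabolic genes, 5 of 19 fatty acid synthesis enzymes could be named, and all 5 fell. FASN, fatty acid synthase, went from 7.81, 8.43 and 8.06 in control 1, 2 and 3 to 6.70, 6.56 and 6.64 in PIM-Pd (36.3% of the control level, adjusted p = 3.4e-05 in limma). SCD, a desaturase, fell to 54.1%, and ACLY, which supplies cytosolic acetyl-CoA, fell by 0.69. All 11 cholesterol genes that could be named, of 27, fell too, by 0.53 to 1.21. HMGCS1, an early enzyme of the mevalonate pathway, was at 7.0, 7.26 and 7.20 in control and at 6.12, 6.05 and 5.67 in PIM-Pd (43.3%). MSMO1, IDI1 and ACAT2, which act along the same pathway, fell to 53.7, 56.2 and 57.3%. Of 8 named glycolytic genes, of 22, 5 fell, 1 rose and 2 were not called. The one that rose was SLC2A3, the glucose transporter GLUT3, by 0.62, with an adjusted p of 0.025 in limma. Its adjusted p was 0.068 without PIM-Pd 1, 0.050 without PIM-Pd 2, 0.102 without PIM-Pd 3 and 0.166 without control 1.

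The factor ATF4 turns on amino acid transporters, serine and asparagine synthesis and tRNA synthetases when amino acids are short. All 14 members of this list that could be named, of 33, fell, by 0.42 to 1.46. SLC7A5, the leucine transporter LAT1, went from 8.43, 8.56 and 8.49 to 7.17, 6.93 and 7.01 (36.4% of the control level, adjusted p = 8.8e-06 in limma). PSAT1, of serine synthesis, went from 9.59, 8.95 and 8.88 to 7.85, 7.76 and 7.50 (36.9%). SLC7A11, the cystine transporter, was highest in replicate 1 of both groups, at 6.05 in control and 5.00 in PIM-Pd. Its other values were 5.30 and 5.22 in control and 4.51 and 3.88 in PIM-Pd, and it fell by 1.06. YARS1, the tyrosyl-tRNA synthetase, fell to 52.8%. The letters TGATGNAA, the core of the element that C/EBP-ATF dimers bind, were in 5 of the 10 called members with a promoter (50%), against 3.67% of all promoters, 2.53% of those of protein-coding genes and 1.51% of those of named genes called lower. The 3 with the largest falls among those with a match before the start site are shown, with the match on either strand in capitals.
IARS1 (chr9:92293698-92293777, minus strand): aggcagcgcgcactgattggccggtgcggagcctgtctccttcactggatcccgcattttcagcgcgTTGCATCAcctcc
ASNS (chr7:97872433-97872512, minus strand): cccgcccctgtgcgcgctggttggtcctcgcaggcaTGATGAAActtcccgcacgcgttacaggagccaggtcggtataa
AARS1 (chr16:70289650-70289729, minus strand): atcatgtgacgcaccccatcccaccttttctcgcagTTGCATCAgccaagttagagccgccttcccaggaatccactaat
The matches began 13, 68 and 187 bases before the start site. IARS1 and AARS1 charge isoleucine and alanine tRNA and ASNS makes asparagine, and their differences were -0.84, -0.45 and -0.83.

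Genes known to respond to glucocorticoids gave 9 named members of 24, of which 6 rose, 1 fell and 2 were not called. Besides DDIT4 and TSC22D3, FKBP5, a co-chaperone of the glucocorticoid receptor, went from 8.39, 8.25 and 8.51 in control to 9.81, 10.37 and 10.36 in PIM-Pd (3.47-fold, adjusted p = 2.8e-05 in limma). PIK3IP1, an inhibitor of PI3-kinase, went from 5.34, 5.81 and 5.88 to 6.91, 7.25 and 7.33 (2.80-fold). The one that fell, ERRFI1, an inhibitor of the EGF receptor, differed by -0.59, is named after its value was seen, and was not called without PIM-Pd 1, PIM-Pd 2, control 2 or control 3.

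Interferon-stimulated genes, which encode antiviral proteins, gave 13 named members of 41. Of these 9 rose, none fell and 4 were not called, and the 13 differences ran from 0.26 to 1.63. IFIT3, which holds viral RNA sensors together, went from 4.24, 3.76 and 4.04 in control 1, 2 and 3 to 5.01, 5.50 and 6.43 in PIM-Pd (3.09-fold, adjusted p = 0.0013 in limma). STAT2, the transducer of type I interferon signals, went from 6.56, 6.59 and 7.02 to 8.09, 7.91 and 8.01 (2.43-fold). PARP14, an ADP-ribosyltransferase, went from 6.75, 6.67 and 6.87 to 7.80, 7.80 and 7.88 (2.10-fold). MX2, a restriction factor, went from 4.29, 3.96 and 4.07 to 4.75, 4.93 and 5.64 (2.00-fold). The spread among treated arrays was wider in IFIT3 and MX2 than in STAT2 and PARP14. The letters GAAANNGAA, the core of the interferon-stimulated response element, were in 5 of the 8 called members with a promoter (62.5%), against 8.29% of all promoters, 7.06% of those of protein-coding genes and 9.71% of those of named genes called higher. The 3 shown have the largest rises of those with a match before the start site.
IFIT3 (chr10:89327840-89327919, plus strand): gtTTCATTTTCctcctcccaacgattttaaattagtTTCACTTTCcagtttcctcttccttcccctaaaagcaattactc
PARP14 (chr3:122680759-122680838, plus strand): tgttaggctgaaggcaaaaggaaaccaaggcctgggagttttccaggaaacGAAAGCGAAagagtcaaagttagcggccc
OAS3 (chr12:112938394-112938473, plus strand): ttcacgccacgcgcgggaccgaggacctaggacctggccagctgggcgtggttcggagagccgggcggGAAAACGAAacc
Matches are in capitals, on either strand. IFIT3 holds the motif 2 times in this stretch, and OAS3, a sensor of double-stranded RNA, differed by 0.65.

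Antigen presentation genes were, where called, higher after PIM-Pd. Of 6 named MHC class I genes, of 20, all rose. ERAP2, which trims peptides for class I molecules, went from 7.77, 7.54 and 7.48 to 8.70, 8.90 and 9.04 (2.44-fold, adjusted p = 8.0e-05 in limma), and TAP1, HLA-E and HLA-F, the other 3 named by the rule, rose by 0.55 to 0.59. Of the 6, 2 were called without PIM-Pd 1 or without control 2, and 4 to 6 without another array. TAP1 was not called without control 2 (adjusted p = 0.0509 in limma). HLA-E was not called without PIM-Pd 1, PIM-Pd 3, control 2 or control 3 (0.064 to 0.100), nor HLA-F without PIM-Pd 1, PIM-Pd 3, control 1 or control 2 (0.061 to 0.0896). HLA genes are close in sequence, and probes can pick up more than 1 of them. Of 8 named class II genes, of 14, 4 rose and 4 were not called. One of the 4 calls, HLA-DRB1, was also named by the rule (0.53, adjusted p = 0.039 in limma). Its adjusted p was 0.060 to 0.200 without control 2, control 3 or any single PIM-Pd array. HLA-DRB1 was not called without the replicate block or with each array centred on its median. CIITA, the master regulator of class II genes, went from 5.91, 5.83 and 6.20 to 7.20, 7.78 and 7.26 (2.69-fold). CTSS, the protease cathepsin S, rose 2.01-fold and HLA-DRA 1.51-fold.

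The drug targets themselves and the regulators around them could be named in part. The cereblon list gave 4 members of 12, of which 3 rose and 1 fell. The fall, of CUL4A, the ligase's scaffold (-0.42, adjusted p = 0.041 in limma), was not called when any 1 of the 6 arrays was left out (0.078 to 0.152). IKZF3 rose by 0.46 but was not called without PIM-Pd 1, control 1 or control 3 (0.067 to 0.080). CUL4A and IKZF3 were named by the rule for lists, which picks called members by the size of their difference. CRBN, cereblon itself, went from 7.27, 7.10 and 7.10 to 7.78, 7.6 and 7.67 (a log2 difference of 0.52, adjusted p = 0.0040 in limma). IKZF1, whose protein is a drug substrate, went from 8.24, 8.58 and 8.53 to 9.27, 9.36 and 9.27 (1.80-fold). These are transcript levels, and no protein was measured on the arrays. PIM1, a target of PIM447, was the 1 of 4 named genes on the PIM and IL6-STAT3 list that fell, from 8.65, 8.82 and 8.26 to 7.44, 7.90 and 7.13 (47.0% of the control level). The other 3 rose, STAT3 by 1.84-fold, though 1 of the 3 was called without control 1 and 2 without PIM-Pd 1, PIM-Pd 2, control 2 or control 3.

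Of 7 named plasma cell identity factors, of 20, 5 rose, 1 fell and 1 was not called. Without control 3, 3 were called higher. Against the fall of IRF4, ZBTB20, a transcriptional repressor, went from 4.29, 4.09 and 3.92 to 5.34, 5.35 and 5.57 (2.50-fold), and ELL2, an elongation factor of antibody secretion, from 7.88, 7.89 and 8.20 to 8.87, 8.64 and 9.23 (1.90-fold). Of 5 named myeloma surface antigens, of 20, 3 rose and 2 were not called. With 1 array left out the number called higher was 1 or 2, and it was 1 without control 2 or control 3. GPRC5D, a receptor targeted by immunotherapy, went from 10.71, 10.87 and 11.03 to 11.52, 11.35 and 11.71 (1.58-fold). CD38, another such target, was at 8.39, 8.55 and 8.44 in control and at 8.72, 9.03 and 8.88 in PIM-Pd (1.34-fold, adjusted p = 0.014 in limma). For CD38 the call did not hold without PIM-Pd 3 (adjusted p = 0.0515), control 2 (0.063) or control 3 (0.074). In marrow adhesion, CXCR4, the receptor that holds myeloma cells in the marrow, rose 2.09-fold and ITGB1, the integrin beta 1 chain, 1.71-fold, while ITGA8 fell, and 1 of the 4 named genes of 21 was not called.

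Regulators of cell death and survival moved in both directions. In the BCL2 family 5 of 20 could be named, with 4 higher and 1 lower. BMF, a BH3-only protein that promotes apoptosis, went from 6.17, 5.66 and 6.15 to 7.88, 7.55 and 7.72 (3.30-fold, adjusted p = 3.4e-06 in limma). MCL1, an anti-apoptotic member on which myeloma cells rely, went from 9.36, 9.49 and 9.44 to 10.44, 10.21 and 10.24 (1.82-fold). BNIP3L, a mitophagy receptor, rose 1.75-fold. BID, which links death receptors to mitochondria, went from 7.49, 7.39 and 7.30 to 6.43, 6.41 and 6.24 (48.8% of the control level). Of 4 named NF-kB genes, of 23, 3 rose: besides CCL4, BIRC3, an inhibitor of apoptosis, rose 1.96-fold and NFKBIZ, a nuclear IkB protein, 1.49-fold. The other member differed by -0.55 and was not called, and 1 member was called lower without PIM-Pd 1. Of 4 named feedback regulators of MAPK signalling, of 22, 3 rose and none fell, led by SPRY1, a Sprouty inhibitor, at 4.85, 5.09 and 5.64 in control and 5.93, 6.26 and 7.28 in PIM-Pd (2.45-fold). SPRY1 was highest in replicate 3 of both groups. The number of these regulators called higher was 1 without PIM-Pd 3, control 1 or control 3, and 2 without PIM-Pd 1 or control 2.

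The smaller lists gave few named members. Of 5 named factors of the MYC, MAX and MXD network, of 13, MYC and MXI1, a repressor that competes with c-Myc for MAX, fell, 1 rose and 2 were not called. The rise was not called without PIM-Pd 3, control 1 or control 3. MXI1 went to 59.3% of the control level. Among 3 mTORC1 regulators DDIT4 rose, while DEPTOR, an inhibitor within the complex, and 1 other fell. Neither fall was called without PIM-Pd 1, PIM-Pd 3, control 1 or control 3, and 1 was called without control 2. DEPTOR was at 9.34, 9.36 and 9.35 in control and at 8.31, 9.08 and 8.27 in PIM-Pd, so that PIM-Pd 2 lay close to the controls (-0.80 ± 0.17, adjusted p = 0.0098 in limma, and 0.0502 to 0.067 without PIM-Pd 1, PIM-Pd 3, control 1 or control 3). In the unfolded protein response and secretory list, HERPUD1, a degradation factor of the endoplasmic reticulum, rose 1.51-fold, SEL1L, an adaptor of the same degradation pathway, fell to 60.9%, and 1 was not called. Of 3 named B cell genes, of 14, CIITA and 1 other rose and 1 fell. With control 1 or control 3 left out 1 was called higher, and the fall was not called without PIM-Pd 1, PIM-Pd 3, control 1 or control 3.

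**Figure D4:**
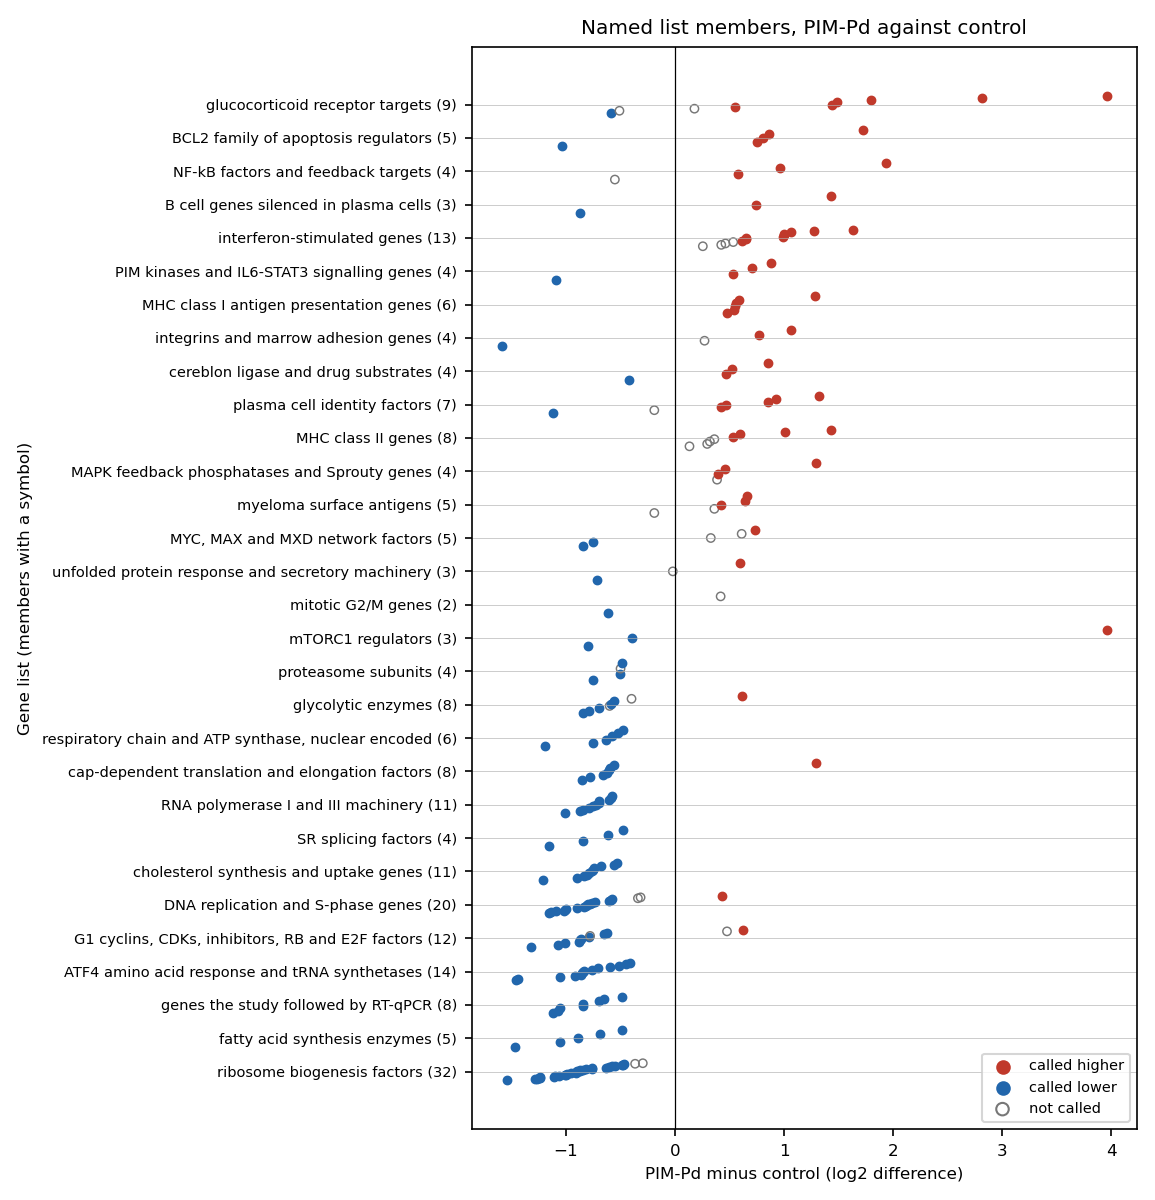
Log2 difference PIM-Pd minus control (horizontal) of each named member of 30 gene lists, with the number of named members in brackets; filled points were called higher (red) or lower (blue), and open points were not called. All 30 called ribosome biogenesis factors lay below 0 and all 9 called interferon-stimulated genes above it; 38.5% of all named probe sets were called higher and 38.2% lower.

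The same members were set beside the other treatments, each against the same 3 control arrays and at its own time. After 15 h of Pd, 1181 of 17710 probe sets were called (6.67%), 738 higher (4.17%) and 443 lower (2.5%). Of the named probe sets 36.6% were called higher and 19.8% lower after Pd. After 24 h of PIM 0 were called in limma (0%), and 1346 had an unadjusted p below 0.05 (7.6%). DDIT4 differed by 3.96 after PIM-Pd, 4.02 after Pd and 0.02 after PIM. IRF4 differed by -1.12, -1.10 and -0.19 in that order, FKBP5 by 1.79, 1.73 and -0.39, and PIM1 by -1.09, -0.99 and 0.29. For these genes PIM-Pd and Pd differed by less than the SE of that difference. Estimates for other genes lay further apart. UTP20 differed by -1.54, -0.76 and -0.36, FASN by -1.46, -0.89 and -0.33, SLC7A5 by -1.46, -0.81 and -0.49, and ACACA by -1.05, -0.22 and -0.45. None of these 4 was called in the direct test of PIM-Pd against Pd (adjusted p = 0.071, 0.144, 0.058 and 0.085 in limma). Of the 32 named ribosome biogenesis factors 30 were called lower after PIM-Pd and 11 after Pd. For the 11 polymerase I and III genes the counts were 11 and 4, for the 14 ATF4 genes 14 and 11, for the 11 cholesterol genes 11 and 9, for the 20 replication genes 17 and 12, and for the 13 interferon-stimulated genes 9 and 7 higher. All 8 named class II genes were called higher after Pd and 4 after PIM-Pd. No named member of these lists was called in the direct test of PIM-Pd against Pd. For the class II genes 6 of those direct estimates were below 0 and 2 above, from -0.62 to 0.37.

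**Figure D5:**
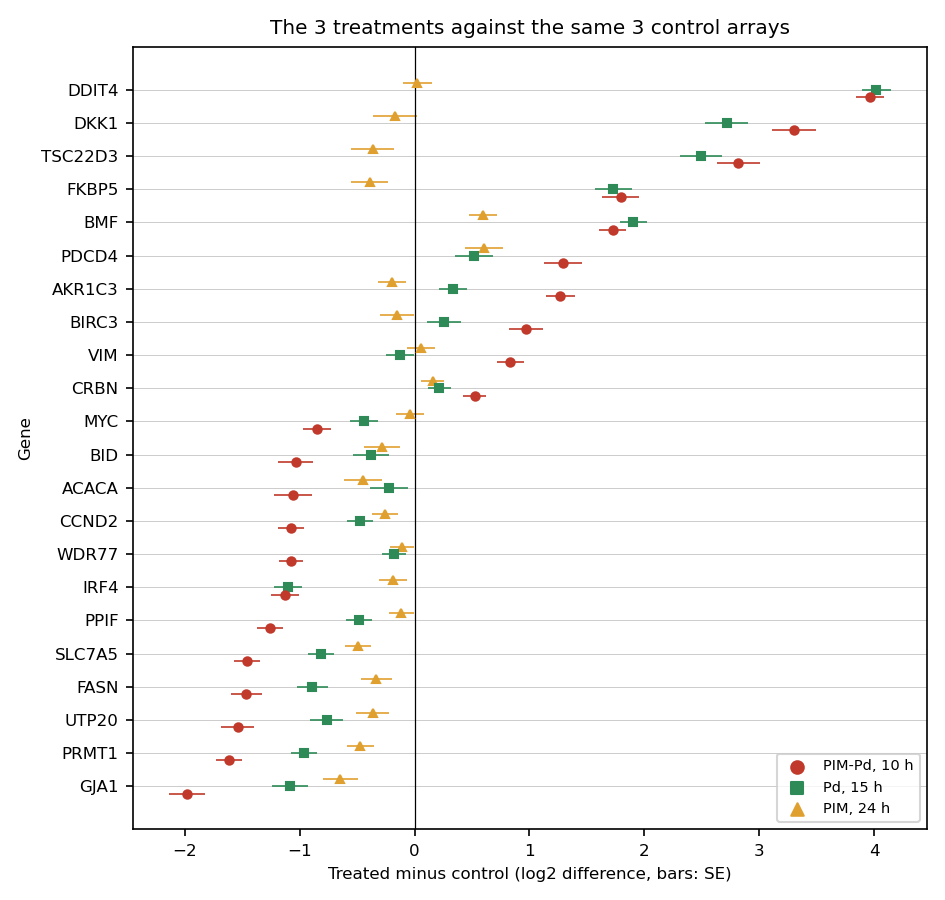
Log2 difference from control with its SE (horizontal) after PIM-Pd for 10 h (red circles), Pd for 15 h (green squares) and PIM for 24 h (yellow triangles), for 22 genes picked after their values were seen. The comparisons share the 3 control arrays and differ in time; DDIT4 lay at 3.96, 4.02 and 0.02 and UTP20 at -1.54, -0.76 and -0.36.

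The difference between PIM-Pd at 10 h and Pd at 15 h was also tested directly, with drug and time not separable. It gave 11 calls of 17710 in limma (0.0621%), 3 higher and 8 lower, and 1834 probe sets at an unadjusted p below 0.05 (10.4%). None of the 11 was called when only the arrays of these 2 groups were fitted, nor without PIM-Pd 3 or without Pd 3, and 1 to 6 of them were called without another array of either group. At 2-fold, 5 were lower and 3 higher without PIM-Pd 2, 2 were higher without Pd 2, 2 were lower without PIM-Pd 1 and 0 were lower without Pd 3. With all arrays a single probe set passed 2-fold (0.00565%), GRHL3, an epithelial transcription factor. GRHL3 was at 7.92, 8.04 and 8.07 in Pd and at 6.99, 6.79 and 6.91 in PIM-Pd (-1.11 ± 0.13, adjusted p = 0.0098 in limma), while control was at 7.42, 7.32 and 6.99. The remaining named calls, given after their values were seen, were lower for WDR77, PPIF, ARHGAP6, STEAP3, TGFBR3, KYAT1 and RAB15 and higher for AKR1C3 and VIM. WDR77, a partner of the arginine methyltransferase PRMT5, was at 6.51, 6.38 and 6.56 in Pd and at 5.65, 5.61 and 5.50 in PIM-Pd. VIM, the filament protein vimentin, was at 7.6, 8.33 and 8.19 in Pd and at 8.80, 8.96 and 9.24 in PIM-Pd, with control at 7.86, 8.30 and 8.34. In WDR77 and VIM the 3 PIM-Pd arrays lay outside the range of all other arrays. TGFBR3, KYAT1, RAB15 and GRHL3 were not called against control, with differences of 0.09, -0.17, -0.20 and -0.35.

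None of the 8 genes followed by RT-qPCR was called in this direct test, and all 8 estimates were below 0. For MYC the difference from Pd was -0.41 (95% interval -0.67 to -0.14, adjusted p = 0.269 in limma), for CCND2 -0.60 (-0.84 to -0.36, adjusted p = 0.071) and for ACACA -0.84 (-1.19 to -0.48, adjusted p = 0.085). IRF4 stood at -0.02 (-0.29 to 0.24, adjusted p = 0.970). The intervals are those of single genes and are not adjusted for the number tested. By RT-qPCR, a separate measurement, the study reported a larger fall of MYC in MM.1S with PIM-Pd than with Pd or PIM. Of the 32 named ribosome biogenesis factors 31 had an estimate below 0 against Pd, from -0.81 to 0.13, and none was called. All 11 polymerase I and III genes were below 0 as well, with none called. Named probe sets as a whole also leaned below Pd, with a median difference of -0.112 against 0.002 over all probe sets. Their names come from lists chosen on these arrays, so the counts of estimates below 0 are no independent evidence. Against PIM at 24 h, PIM-Pd gave 1262 calls (7.13%), of which 122 were higher (0.689%) and 52 lower (0.294%) by at least 2-fold. Among the 8 genes, all but PGK1 were called lower than in PIM, MYC by 0.81 and IRF4 by 0.93. DDIT4 was higher than in PIM by 3.94.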

How the data were processed

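Total RNA of 12 MM.1S cultures (4 treatments, 3 biological replicates each) was hybridised to Clariom S human arrays. The deposited values are log2 levels, which the authors computed by RMA (background correction, quantile normalization, summary per probe set) in oligo 1.44.0 under R 3.5.0 with a custom BrainArray definition of 1 probe set per Ensembl gene. RMA gives every array nearly the same distribution, so that a change common to all transcripts would not show. Arrays have no read depth, and 3 arrays per group limit the precision. The genome build behind the probe sets is not given in the sources used here. Scanner files were not used here.

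Symbols came from ID and symbol pairs in the study's supplementary lists of deregulated genes, used for names alone: 1901 of 17710 probe sets got one, 64 were updated to the current symbol, 2 were not in the RefSeq table, and 75.4% of the 1934 called probe sets have one. Which genes can be named therefore depends on these arrays. The gene lists were written from textbook membership; the members, lists and motifs were chosen with earlier results of these data known.

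All 12 arrays were fitted in limma 3.58.1 (R 4.3.3; lmFit, contrasts.fit, eBayes) with treatment and replicate number as terms and Benjamini-Hochberg adjustment over 17710 probe sets. A call needed an adjusted p below 0.05, and for the second count also a fold of at least 2. The authors' SAM test was not run, and the sources do not say whether it was paired. The labels' replicate field is marked as pairs. Deviations from the group means correlated by 0.155, -0.011 and 0.122 between same-numbered PIM-Pd and control arrays, over genes, and the pairing rests on the labels. The script was tested on simulated data. Genes were named by rule: the 12 largest rises and falls among calls with 1 direction in all pairs, up to 4 called members per list, the 8 RT-qPCR genes, and the 2-fold calls against Pd. Alternatives were no block, only the arrays compared, no low-level probe sets, median centring, other variance models, and leaving out each array or replicate. Promoter sequences are those of RefSeq.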

Additional observations from a re-analysis of the deposited data

How the results depend on the processing

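Between PIM-Pd and control, the counts of 897 higher and 1037 lower were 782 and 889 without the replicate block, and the counts at 2-fold stayed at 155 and 100. The lowest and highest counts with 1 array or 1 replicate left out were 299 and 723 higher, 335 and 951 lower, 141 and 190 higher at 2-fold, and 72 and 160 lower at 2-fold; with 1 array left out of a group, its other 2 arrays are assumed to vary like the other groups. Under the remaining alternatives these counts kept within 1.5 times of the reported ones; with each array centred on its median they were 752 and 1187. Against Pd, the 1 probe set lower by 2-fold became 0 with only the arrays of the 2 groups, 2 with median centring and 2 with an intensity trend, and ranged from 0 to 5 with arrays or replicates left out, and the higher ones from 0 to 3. Against PIM, the counts at 2-fold ranged from 111 to 139 higher and from 44 to 90 lower. Of 122 named genes that were called, 72 kept the call under every alternative run, 28 lost it when 1 of the 6 arrays was left out, and 22 only when a whole replicate was left out or under another model; none changed sign. Fitting only the arrays of the 2 groups cost 9 named genes the call, leaving out the replicate block 5 and median centring 1. The causes were not tested. The lowest signals cannot be set against background here, since the deposited values carry no detection calls.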
